A study of Mus musculus with 12 samples.

Results

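The 8 genes described here carry the steps of glucose synthesis that do not run backwards through glycolysis, together with the coactivator that is best known for switching them on. They are Pck1 (ENSMUSG00000027513), Pck2 (ENSMUSG00000040618), Pcx (ENSMUSG00000024892), Fbp1 (ENSMUSG00000069805), Fbp2 (ENSMUSG00000021456), G6pc (ENSMUSG00000078650), Slc37a4 (ENSMUSG00000032114) and Ppargc1a (ENSMUSG00000029167). They were chosen by symbol, each matched 1 of the 27412 Ensembl gene IDs in the deposited table, and all 8 were measured well enough to be tested among 19564 genes. RNA from the outer cortex of both kidneys of 6 untreated male C57BL/6 mice had been sequenced. The WT group was 3 wild-type mice (1, 2 and 3), and the HIF2aM3 group was 3 mice positive for the gamma-HIF2alphaM3 transgene (17-51, 17-53 and 17-56). The transgene sits behind the promoter of the γ-glutamyl transferase gene, which is active in proximal tubule cells. The HIF2aM3 animals share the prefix 17, and the sources used here do not say whether that marks 1 transgenic line, nor how old the mice were, whether they had fed, or at what hour tissue was taken.

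Gluconeogenesis builds glucose from lactate, glutamine and glycerol, and in mammals only the liver, the kidney and, to a smaller extent, the intestine release the product into the blood. Pyruvate carboxylase (Pcx) makes oxaloacetate in mitochondria, phosphoenolpyruvate carboxykinase (Pck1 in the cytosol, Pck2 in mitochondria) turns it into phosphoenolpyruvate, fructose-1,6-bisphosphatase (Fbp1 in liver and kidney, Fbp2 in muscle) bypasses phosphofructokinase, and the glucose-6-phosphate transporter (Slc37a4) with glucose-6-phosphatase (G6pc) frees glucose inside the endoplasmic reticulum. In the kidney the pathway belongs to the proximal tubule, where Pck1 is also known to respond to acid load, cAMP and glucocorticoids. HIF2α, the product of Epas1, is one of the transcription factors that cells stabilise when oxygen is low, and it binds DNA at a short core written ACGTG or GCGTG.

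The sequences just upstream of 4 of these genes are shown because they hold, or lack, letters of the HIF core and of the cAMP response element, through which Pck1 is known to be switched on. They come from RefSeq on GRCm38.p6, a different build from the mm9 used for the counts, and run 5′ to 3′ on the gene's own strand. Each starts 250 bases before the start site, and bases that GENCODE M21 places in an exon were left off its end. Capitals mark ACGTG or GCGTG (HIF core), ACGTCA and TGACG (parts of the cAMP response element) on either strand.
Pck1, chr2:173152823-173153047, plus strand: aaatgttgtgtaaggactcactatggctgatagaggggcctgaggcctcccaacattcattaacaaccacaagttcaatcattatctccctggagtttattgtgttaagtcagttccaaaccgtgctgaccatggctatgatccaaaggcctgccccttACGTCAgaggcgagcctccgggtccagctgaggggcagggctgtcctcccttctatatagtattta
Ppargc1a, chr5:51567727-51567975, minus strand: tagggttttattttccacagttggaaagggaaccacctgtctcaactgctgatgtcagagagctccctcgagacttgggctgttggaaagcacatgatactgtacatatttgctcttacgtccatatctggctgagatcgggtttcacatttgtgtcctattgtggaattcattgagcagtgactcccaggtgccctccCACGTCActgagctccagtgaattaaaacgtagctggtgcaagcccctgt
Pcx, chr19:4510222-4510471, plus strand: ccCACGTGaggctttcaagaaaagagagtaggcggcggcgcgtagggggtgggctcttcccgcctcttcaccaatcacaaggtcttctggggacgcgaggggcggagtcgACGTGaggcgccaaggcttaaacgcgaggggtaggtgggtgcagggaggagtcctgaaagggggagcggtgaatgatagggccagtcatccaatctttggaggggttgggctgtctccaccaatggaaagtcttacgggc
G6pc, chr11:101367466-101367560, plus strand: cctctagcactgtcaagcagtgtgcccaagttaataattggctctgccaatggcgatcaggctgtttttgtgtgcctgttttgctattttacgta

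All 8 genes matched RefSeq promoters, in 11 windows of 250 bases. The Pck1 window held ACGTCA at -91 to -86 from the start site and no HIF core. In the Ppargc1a window the letters of both motifs overlapped, with ACGTG on the reverse strand from -51 to -47 and ACGTCA from -50 to -45. The first of 2 Pcx windows held ACGTG on the forward strand at -247 to -243 and -140 to -136, the former also being read on the reverse strand from -248 to -244. The HIF core was also present in Pck2 (GCGTG, -85 to -81) and Fbp2 (ACGTG on both strands, between -42 and -37), and was absent from the windows of Pck1, Fbp1, G6pc and Slc37a4. ACGTCA was read on the reverse strand in the first (-61 to -56) and second (-214 to -209) of the 3 Slc37a4 windows. The first and second windows overlap, and both hits are the same site in the genome. TGACG was read on the reverse strand in the second Slc37a4 window (-82 to -78) and in Fbp2 (-97 to -93). Among all 32851 windows of that length, 38.6% held either form of the HIF core, 16.6% ACGTG, 28.2% GCGTG, 6.47% ACGTCA and 17.8% TGACG (which is contained in the reverse complement of ACGTCA). The CCAAT box, found in Pck2, Pcx, Fbp1 and G6pc, was in 33.8% of windows. AGAACA, a glucocorticoid receptor motif, and TGTTTAC, a forkhead motif, were in none of the 11 windows and in 16.1% and 3.17% of all.

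Depth per library lay between 24032148 and 43499743 counts, kidney 2 of 17-51 being the exception at 4161829, and depth per animal between 32392033 and 85018818. Values below are counts relative to library size, scaled with TMM factors (CPM), the 2 kidneys of an animal being summed. Epas1, which checks the transgene, was at 197, 238 and 177 CPM in WT 1, 2 and 3 and at 278, 276 and 248 CPM in 17-51, 17-53 and 17-56. Its log2 fold change of 0.39 ± 0.11 (SE) missed the threshold with edgeR (adjusted p = 0.0881) and passed with DESeq2 (adjusted p = 0.0102). With 1 animal left out it ran from 0.29 to 0.51. The edgeR adjusted p ran from 0.0192 (without WT 2) to 0.226 (without 17-53), and 1 of the 6 leave-outs passed. The sources used here do not say whether transgene reads count under Epas1. Ggt1, a mouse γ-glutamyl transferase gene, averaged 1165 ± 73.4 CPM in the WT animals and 1225 ± 82.8 CPM in the transgenic ones (SD, n = 3). In bulk tissue, fewer cells of a type and less RNA per cell cannot be told apart.

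The data show 1 large difference among the 8 genes and several small ones. On counts summed per animal, none passed the threshold with edgeR and 2 did with DESeq2. Pck1 in the HIF2aM3 cortex was at 34.9% of its WT level, Slc37a4 at 79.5% and Fbp1 at 86.5%, and these were lower in every transgenic animal than in any WT animal. Fbp2 was at 113% and also did not overlap, while Pck2, Pcx, G6pc and Ppargc1a overlapped between genotypes. At a Benjamini-Hochberg adjusted p under 0.05, edgeR's quasi-likelihood test called 0 of the 8, against 3.75% of all genes tested (1.93% higher and 1.82% lower in HIF2aM3). At an unadjusted p under 0.05 it found 3 (Pck1, Slc37a4 and Fbp1), against 24.9% of all genes. On the same animal sums DESeq2 called 2, Pck1 (adjusted p = 0.0312) and Slc37a4 (0.0114), against 10.8% of its genes. Taking the 12 libraries as replicates, which counts the kidneys of a mouse as independent, edgeR called 4 (Pck1, Slc37a4, Fbp1 and Fbp2), against 26.6% of all genes. The animals of the genotypes did not overlap for 4 of the 8, 3 lower and 1 higher in HIF2aM3, against 32.0% of all genes (16.5% lower and 15.5% higher). Of the 8 log2 fold changes 4 were positive and 4 negative, with a median of -0.03, beside 0.00485 over all genes.

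**Figure D1:**
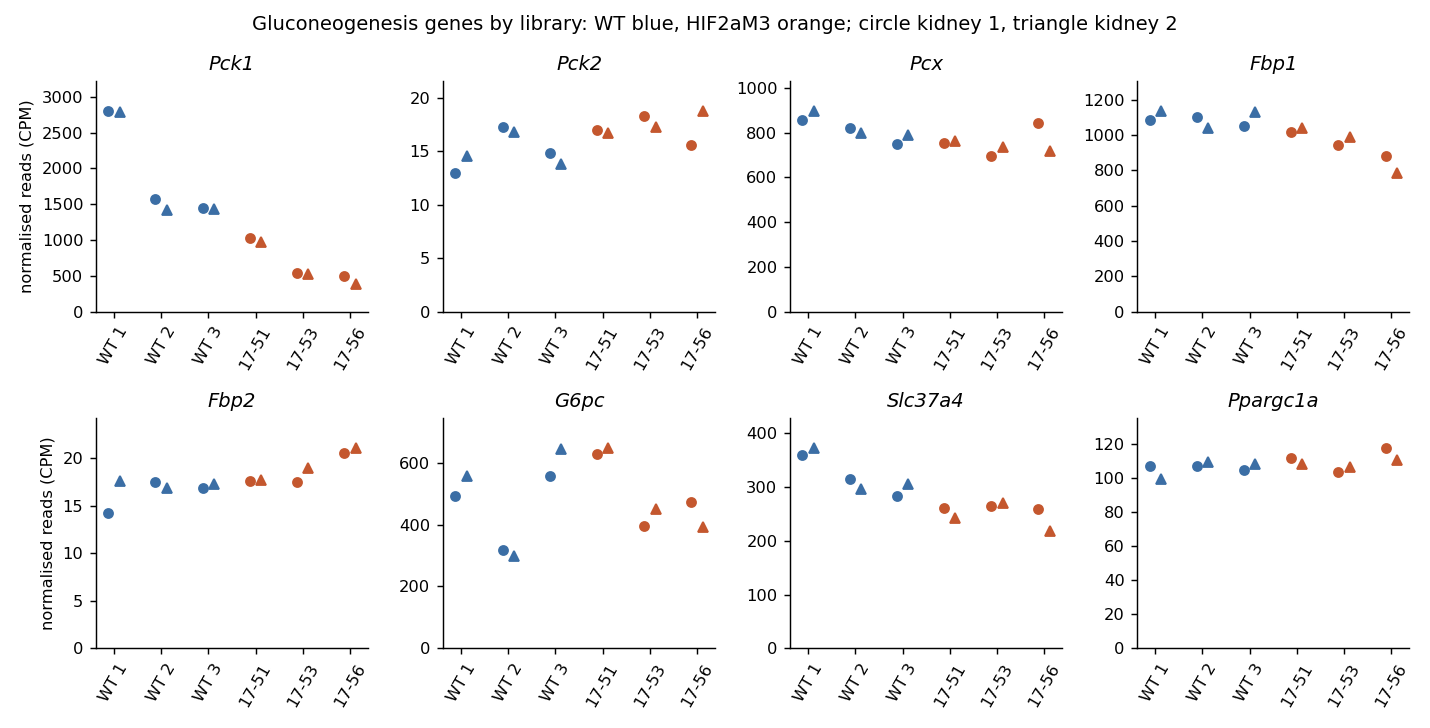
Normalised reads (CPM, vertical axes from 0) of each of the 8 genes in all 12 libraries, by animal, with WT in blue, HIF2aM3 in orange, circles for kidney 1 and triangles for kidney 2. Pck1 runs from 2800.1 CPM in WT 1 kidney 1 to 388.5 CPM in 17-56 kidney 2, while Ppargc1a is nearly level. For Pck1 the largest log2 difference between the kidneys of an animal is 0.357, in 17-56.

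Pck1 encodes the cytosolic phosphoenolpyruvate carboxykinase, the enzyme whose mRNA level is the classical control point of the pathway. It was at 2779.9, 1504 and 1438 CPM in WT 1, 2 and 3. In 17-51, 17-53 and 17-56 it was at 1018, 535 and 448 CPM. WT 1 stood well above the other WT animals and 17-51 well above the other transgenic ones, yet the lowest WT animal lay above the highest HIF2aM3 animal. The means were 1907 ± 756 CPM (SD, n = 3) and 667 ± 307 CPM, and the log2 fold change was -1.52 ± 0.39 (SE, edgeR adjusted p = 0.0806). The biological coefficient of variation between animals was 32.2%, higher than in 96.2% of the genes tested, whose median was 10%. Leaving out 1 animal at a time gave log2 fold changes from -1.96 (without 17-51) to -1.15 (without WT 1), with edgeR adjusted p between 0.0788 and 0.206. The authors' deposited table gives Pck1 a log2 fold change of -1.50 and a q of 0.0101 over libraries. It gives Slc37a4 a log2 fold change of -0.317 and a q of 0.0224. For the rest of the gluconeogenesis genes the authors' q was above 0.05, the smallest being 0.0940 for Fbp1.

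Seen library by library, Pck1 was at 2800.1 and 2785 CPM in kidneys 1 and 2 of WT 1, 1579 and 1420.5 in those of WT 2 and 1445 and 1437 in those of WT 3. The kidneys of 17-51 had 1021 and 979 CPM, those of 17-53 had 545 and 525 CPM, and those of 17-56 had 497 and 388.5 CPM. All 6 WT libraries were above all 6 HIF2aM3 libraries, and in either kidney WT 1 was the highest and 17-56 the lowest animal. As a share of all reads, Pck1 alone made up 0.274, 0.154 and 0.139% in WT 1, 2 and 3 and 0.102, 0.054 and 0.0451% in 17-51, 17-53 and 17-56. The 8 genes together made up 0.569, 0.424 and 0.42% in WT and 0.385, 0.308 and 0.292% in HIF2aM3, so that Pck1 accounted for most of that difference in reads.

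Pck2, the mitochondrial form of the same enzyme, had the lowest level per transcript length of the 8 genes. It was at 13.8, 17.0 and 14.3 CPM in WT 1, 2 and 3 and at 17.0, 17.8 and 16.9 CPM in 17-51, 17-53 and 17-56. WT 2 reached the transgenic range and the other WT animals lay below it. The log2 fold change was 0.20 ± 0.09 (SE, edgeR adjusted p = 0.215), and it ran from 0.13 without WT 1 to 0.29 without WT 2, where it passed (adjusted p = 0.0459). GENCODE M21 places Gm10876 on the opposite strand across Pck2 exons, and the sources used here do not say whether counting used strand, so reads of that gene could be included.

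Pcx encodes pyruvate carboxylase, which feeds both gluconeogenesis and the citric acid cycle. It was at 874, 809 and 768 CPM in WT 1, 2 and 3 and at 756, 716 and 787 CPM in 17-51, 17-53 and 17-56. The ranges overlapped through WT 3 and 17-56, and the log2 fold change was -0.12 ± 0.07 (SE, edgeR adjusted p = 0.365), or -0.17 (without WT 3) to -0.0759 (without WT 1) with 1 animal left out.

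Fbp1 encodes the fructose-1,6-bisphosphatase of liver and kidney. It was at 1108, 1072 and 1091 CPM in WT 1, 2 and 3, a spread of 18.3 CPM (SD) around a mean of 1090.3. In 17-51, 17-53 and 17-56 it was at 1023, 968 and 838 CPM. The WT animals were closely alike and 17-56 was the lowest of all, without overlap between genotypes. The log2 fold change was -0.21 ± 0.09 (SE, edgeR adjusted p = 0.183), and leaving out 1 animal at a time gave -0.28 (without 17-51) to -0.13 (without 17-56).

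Fbp2, the muscle form, was at 15.9, 17.2 and 17.0 CPM in WT 1, 2 and 3 and at 17.6, 18.2 and 20.7 CPM in 17-51, 17-53 and 17-56. The groups were separated by the narrow step from 17.2 to 17.6 CPM, and 17-56 was the highest animal. The log2 fold change was 0.18 ± 0.08 (SE, edgeR adjusted p = 0.208). Leaving out 1 animal at a time gave 0.10 (without 17-56) to 0.22 (without 17-51). Of 7 skeletal muscle markers 6 were in the table and 2, Acta1 and Mylpf, were tested. Together the tested pair was at 3.07 to 3.61 CPM in WT and 2.92 to 3.53 CPM in HIF2aM3, with 0 called by edgeR (0 at an unadjusted p under 0.05, 0 by DESeq2). The defining muscle genes Ckm and Myh4 were near 0, with 8 and 0 reads over all WT libraries and 6 and 1 over all HIF2aM3 libraries. The part of muscle RNA in the Fbp2 values was not tested.

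Slc37a4 carries glucose-6-phosphate into the endoplasmic reticulum for hydrolysis. It was at 365, 305 and 295 CPM in WT 1, 2 and 3 and at 260, 267 and 240 CPM in 17-51, 17-53 and 17-56. WT 1 was the highest animal, as for Pck1, and the groups did not overlap. The means were 322 ± 37.6 CPM (SD, n = 3) and 256 ± 14 CPM, with a log2 fold change of -0.33 ± 0.09 (SE, edgeR adjusted p = 0.0849). Leaving out 1 animal at a time gave log2 fold changes from -0.40 to -0.24 and edgeR adjusted p from 0.0643 to 0.202.

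G6pc, the catalytic subunit of glucose-6-phosphatase and the partner of Slc37a4 in releasing glucose, showed the second widest spread between animals. It was at 523, 309 and 603 CPM in WT 1, 2 and 3 and at 631, 423 and 436 CPM in 17-51, 17-53 and 17-56. WT 2 was the lowest animal and 17-51 the highest, and 17-53 and 17-56 fell inside the WT range. The means were 478 ± 152 CPM (SD, n = 3) and 497 ± 117 CPM, a log2 fold change of 0.05 ± 0.27 (SE, edgeR adjusted p = 0.924). Its direction turned when an animal was left out, at -0.19 without WT 2 and -0.16 without 17-51, against 0.25 without WT 3. The biological coefficient of variation was 22.8%, higher than in 89.2% of genes tested.

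Ppargc1a encodes PGC-1α, the coactivator through which fasting signals raise Pck1 and G6pc in liver. It was at 103, 108 and 107 CPM in WT 1, 2 and 3 and at 112, 105 and 115 CPM in 17-51, 17-53 and 17-56. The genotypes overlapped, with a log2 fold change of 0.06 ± 0.05 (SE, edgeR adjusted p = 0.515), or 0.0327 (without WT 1) to 0.0970 (without 17-53) with 1 animal left out. Its biological coefficient of variation of 6.34% was higher than in only 9.0% of genes tested, so the coactivator was among the steadiest genes of the table and Pck1 among the most variable.

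**Figure D2:**
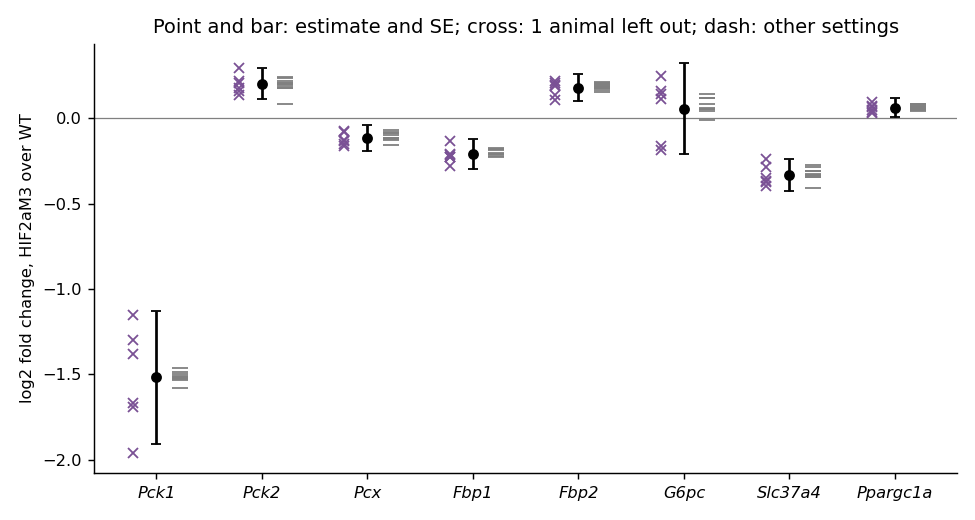
Log2 fold change of each of the 8 genes, HIF2aM3 over WT, with the estimate and SE from 3 animals per genotype (point and bar), each animal left out in turn (crosses) and the other settings (dashes). Pck1 stays between -1.96 and -1.15, Slc37a4 stays below 0, and G6pc lies on both sides of 0.

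Levels can be compared between genes only per transcript length, for which the authors' deposited RPKM (reads per kilobase, relative to library size) was averaged over the kidneys of each animal. In WT the order of mean RPKM was Fbp1 at 349 ± 6.00 (SD, n = 3), Pck1 at 232 ± 89.8, G6pc at 176 ± 51.8, Slc37a4 at 65.0 ± 7.35, Pcx at 59.5 ± 4.21, Fbp2 at 11.3 ± 0.67, Ppargc1a at 9.11 ± 0.44 and Pck2 at 2.55 ± 0.37. Fbp1, the liver and kidney form, thus stood far above Fbp2, the muscle form, and Pck1, the cytosolic form, far above Pck2, the mitochondrial form. In the order of WT levels, the animals' ranges overlapped for the neighbours Pck1 and G6pc and for Slc37a4 and Pcx, and not for any other neighbouring pair.

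In HIF2aM3 the order of mean RPKM was Fbp1 at 309 ± 32.3 (SD, n = 3), G6pc at 188 ± 45.7, Pck1 at 82.1 ± 37.1, Pcx at 55.9 ± 2.40, Slc37a4 at 52.2 ± 3.05, Fbp2 at 13.1 ± 1.17, Ppargc1a at 9.65 ± 0.41 and Pck2 at 3.00 ± 0.08. Pck1 therefore stood below G6pc without overlap, and its lowest animal reached the range of Pcx, which in turn overlapped Slc37a4. Among all genes ranked by RPKM within an animal, Pck1 was between the 60th and the 152nd highest in WT and between the 219th and the 637th in HIF2aM3. Fbp1 kept ranks from 56 to 62 in WT and from 61 to 80 in HIF2aM3.

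**Figure D3:**
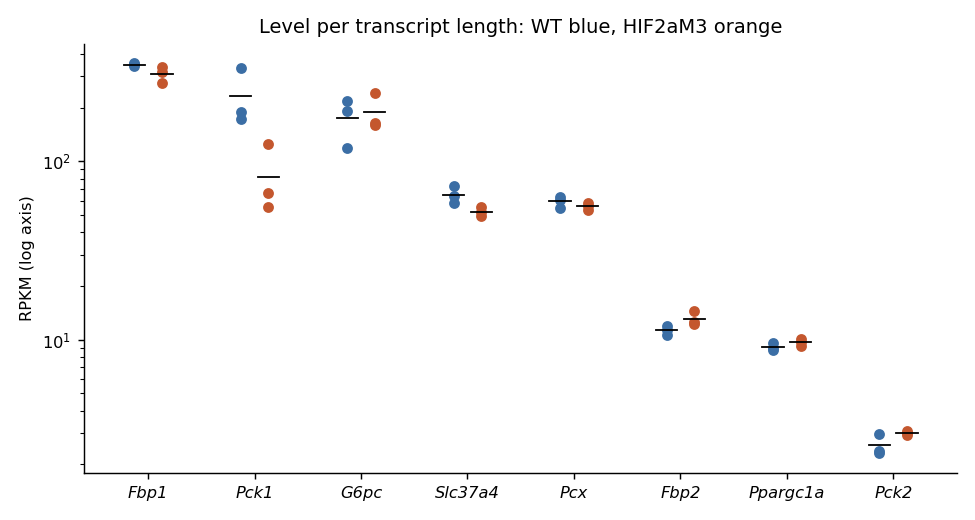
RPKM of the 8 genes on a log axis, ordered by their WT mean, with 1 point for each of 3 WT animals (blue) and 3 HIF2aM3 animals (orange). Pck1 is the gene whose genotypes stand farthest apart, at 232 against 82.1 mean RPKM.

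Ratios within an animal do not depend on its depth. The RPKM of Pck1 over that of G6pc, the enzymes that make phosphoenolpyruvate and free glucose, was 1.75, 1.60 and 0.79 in WT 1, 2 and 3 and 0.516, 0.415 and 0.337 in 17-51, 17-53 and 17-56. The groups did not overlap, and the mean log2 ratio was lower by 1.64 in HIF2aM3. An exact two-sided permutation test over the 6 animals gave p = 0.1, the smallest value that 3 animals against 3 can give. The RPKM of Pck1 over that of Pck2 was 146, 63.4 and 72.4 in WT and 42.4, 21.6 and 18.5 in HIF2aM3, again without overlap. That of Fbp1 over Fbp2 was 33.0, 29.5 and 30.3 in WT and 27.5, 25.1 and 18.9 in HIF2aM3. The ratios Pck1 over Pck2 and Fbp1 over Fbp2 were thus lower in each transgenic animal than in any WT animal. Pck1 over Fbp1 also separated the genotypes (0.956, 0.533 and 0.504 against 0.37, 0.21 and 0.202), whereas G6pc over Slc37a4 did not (2.63, 1.86 and 3.73 against 4.64, 2.90 and 3.32, exact permutation p = 0.4). Of the 5 ratios computed, 4 reached the smallest possible exact permutation p of 0.1, or 0.125 after Benjamini-Hochberg adjustment over the 5. These are not separate results, since all but Fbp1 over Fbp2 share Pck1, and Pck1, Fbp1 and Fbp2 each did not overlap singly. How often ratios of other gene pairs separate the genotypes was not computed.

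The paired kidneys give a second measure of spread. For Pck1 the SD between the kidneys of an animal was 0.115 on the log2 scale and the SD between animals of a genotype 0.579, a ratio of 5.05. G6pc had a between-kidney SD of 0.128 and a between-animal SD of 0.428, a ratio of 3.34. For the other 6 genes the ratio lay between 1.02 (Fbp2) and 1.64 (Fbp1). The variation of Pck1 and G6pc was thus shared by both kidneys of a mouse. Kidney 2 did not differ from kidney 1 for any of the 8 genes at an adjusted p under 0.05 (0 of 8, edgeR with the animal as a block, against 0.0936% of all genes). At an unadjusted p under 0.05 there was 1, against 8.57%, namely Pck1 with a log2 difference of -0.106 ± 0.0433 (SE, edgeR adjusted p = 0.504), lower in kidney 2 in 6 of 6 animals.

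The genes with the pattern closest to that of Pck1, G6pc and Ppargc1a were found by the root mean square (RMS) difference of log2 CPM over the 12 libraries, each gene centred on its own mean, among 15299 genes with a mean of at least 1 CPM. For Pck1, whose own RMS deviation was 0.916, these were Crybg2 (0.241), Zfp648 (0.400), Dpys (0.412), which encodes dihydropyrimidinase, Lgals4 (0.421), which encodes galectin-4, and Col27a1 (0.424), a fibrillar collagen gene. Crybg2 was at 3.82, 1.95 and 2.25 CPM in WT 1, 2 and 3 and at 1.51, 0.862 and 0.474 CPM in 17-51, 17-53 and 17-56. It shared the high value of WT 1 and the order of the transgenic animals with Pck1, a likeness for which it was chosen. It overlaps Cd52 on the opposite strand, and its log2 fold change of -1.55 ± 0.43 (SE) missed the threshold (edgeR adjusted p = 0.0881). Of the 5 only Zfp648 passed, at -1.40 ± 0.20 (SE, edgeR adjusted p = 0.0211), a call kept without WT 2 or WT 3 and lost without any of the other 4 animals.

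For G6pc, with an RMS deviation of 0.364, the closest genes were Gm17035 (0.168), Hunk (0.170), a kinase gene, Ndrg1 (0.177), Arhgap26 (0.197) and Arntl (0.197), which encodes the circadian clock factor BMAL1. Gm17035 and Ndrg1 overlap on opposite strands, so their reads cannot be told apart if strand was not used. Ndrg1 was at 3451, 1784 and 3463 CPM in WT 1, 2 and 3 and at 3870, 3269 and 3249.5 CPM in 17-51, 17-53 and 17-56. Arntl was at 8.95, 6.28 and 13.2 CPM in WT and at 15.0, 9.01 and 9.17 CPM in HIF2aM3. In both, as in G6pc, WT 2 was the lowest animal and 17-51 the highest, a likeness that follows from how they were chosen. Ppargc1a, with an RMS deviation of only 0.0584, had 2336 genes within 0.1 of it, so its closest genes (Herpud2 0.0383, Brip1os 0.0397, Phldb2 0.0404, Adam17 0.0404 and Fnbp1l 0.043) single out no pattern.

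**Figure D4:**
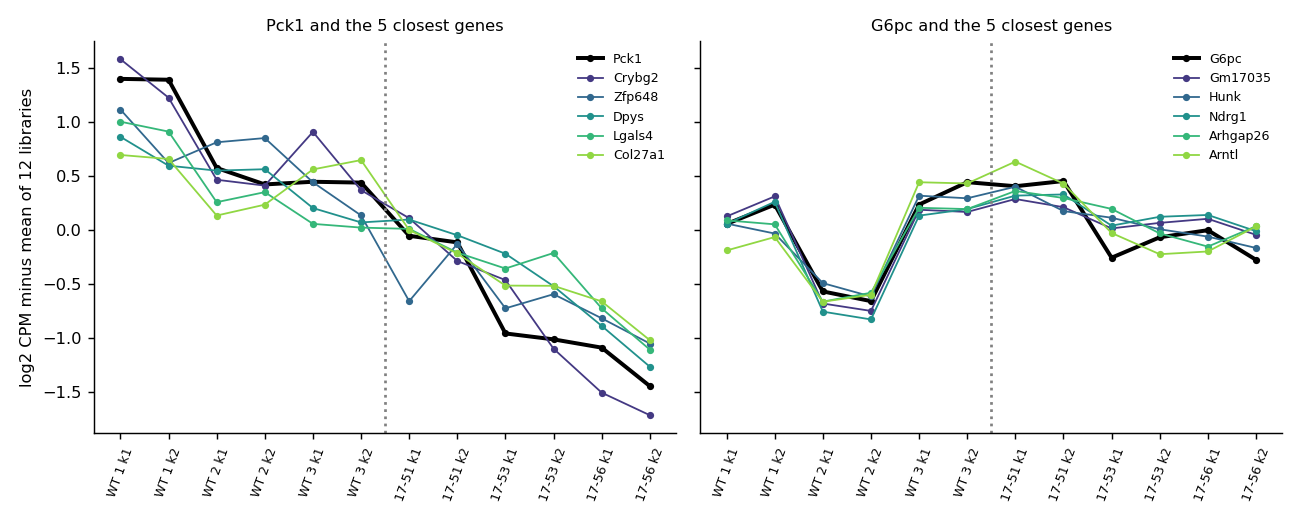
Log2 CPM minus the mean of the 12 libraries for Pck1 (left, black) and G6pc (right, black) with the 5 closest genes (colours), libraries on the horizontal axis by animal and kidney (k1, k2), the dotted line dividing WT from HIF2aM3. The Pck1 group is highest in WT 1 and lowest in 17-56, and the G6pc group has its low point in WT 2.

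The remaining genes of the pathway were taken from 8 lists. Their counts stand beside shares over all genes tested of 1.93% called higher and 1.82% called lower by edgeR, 24.9% at an unadjusted edgeR p under 0.05 and 10.8% called by DESeq2. The reversible steps shared with glycolysis had 14 genes tested, of which 0 rose, 3 fell and 11 did not pass, with a median log2 fold change of -0.10. The falls were Eno1 (-0.48 ± 0.09, SE), enolase, and Pgam1 (-0.35 ± 0.07) and Pgam2 (-0.55 ± 0.11), the brain and muscle phosphoglycerate mutases. Of the enzymes that oppose gluconeogenesis 12 of 14 were tested, and 2 rose and 0 fell, with a median of -0.03. Pfkp, the platelet phosphofructokinase that works against Fbp1, rose from 38.6 ± 4.0 to 112 ± 27.0 CPM (SD, n = 3, log2 fold change 1.53 ± 0.18, SE). Its exons overlap Pitrm1 on the opposite strand, which had 22473 reads over all libraries. Hk2, hexokinase 2, which works against G6pc, rose from 0.398 ± 0.175 to 1.26 ± 0.211 CPM and stayed a rare transcript.

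Of the enzymes and carriers that bring in lactate and pyruvate 1 of 17 rose and 0 fell, with a median of -0.04. It was Slc5a12 (0.49 ± 0.10, SE), the low-affinity lactate cotransporter of the proximal tubule. For amino acid, glycerol and fructose entry 23 of 24 genes were tested, 0 rose and 3 fell, with 18 of 23 values negative and a median of -0.22. DESeq2 called 9 of these genes, against 10.8% of all genes, and 13 of the 23 had an unadjusted edgeR p under 0.05, against 24.9%. The falls were Gpt (-1.09 ± 0.10, SE), cytosolic alanine aminotransferase, Prodh (-0.41 ± 0.06), proline dehydrogenase, and Got1 (-0.25 ± 0.05), cytosolic aspartate aminotransferase. Slc38a3, the glutamine transporter of the proximal tubule that is known to rise with Pck1 in acidosis, was picked out after its values were seen. It was at 14.9, 21.7 and 24.8 CPM in WT 1, 2 and 3 and at 10.2, 5.23 and 3.69 CPM in 17-51, 17-53 and 17-56, without overlap, and missed the threshold at a log2 fold change of -1.73 ± 0.37 (SE, edgeR adjusted p = 0.058). Among WT animals its order was the reverse of that of Pck1, and among HIF2aM3 animals it was the same.

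Glucose transport and release had 14 of 15 genes tested and 0 past the threshold by edgeR (2 at an unadjusted p under 0.05, and 2 by DESeq2), with a median of -0.10. The smallest p there belonged to Slc5a10, a mannose and fructose cotransporter gene that overlaps Fam83g and Grap on the opposite strand, at -0.78 ± 0.18 (SE, edgeR adjusted p = 0.0602). Of 35 transcriptional regulators of gluconeogenesis 1 rose and 2 fell, with a median of -0.05. Nr3c1, the glucocorticoid receptor, rose by 0.49 ± 0.07 (SE). Esrra, the nuclear receptor ERRα that works with PGC-1α, was at 150, 148 and 151 CPM in WT 1, 2 and 3 and at 117, 120.2 and 119 CPM in 17-51, 17-53 and 17-56, a fall by 0.34 ± 0.05 on the log2 scale. Pprc1, a relative of Ppargc1a, fell by 0.44 ± 0.09. Esrra overlaps Trmt112, and Pprc1 overlaps Ldb1, each on the opposite strand.

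Of 24 hormone and signalling genes 1 rose and 1 fell, with a median of 0.02. Irs2, an insulin receptor substrate, rose by 0.85 ± 0.09 (SE), and Pth1r, the parathyroid hormone receptor, fell by 0.34 ± 0.07. Of 20 glucocorticoid and fasting responsive genes 19 were tested, 1 rose and 1 fell, with a median of -0.24. DESeq2 called 8 of them, against 10.8% of all genes, and 12 of the 19 had an unadjusted edgeR p under 0.05, against 24.9%. Hsd11b1, which regenerates active glucocorticoid inside cells, rose from 56.9 ± 4.08 to 223 ± 51.8 CPM (SD, n = 3, log2 fold change 1.97 ± 0.16, SE). Fkbp5, a gene that glucocorticoid receptor activity is known to raise, fell by 1.10 ± 0.16. In the other lists DESeq2 called 5 reversible-step genes, 3 opposing enzymes, 1 entry gene for lactate and pyruvate, 6 regulators and 5 hormone and signalling genes. Across the lists, edgeR adjusted p of the genes said to have risen or fallen lay between 0.00911 (Gpt and Hsd11b1) and 0.0483 (Slc5a12). Hsd11b1 kept its call without any 1 of the 6 animals. Gpt and Irs2 lost theirs only without 17-53, with adjusted p of 0.0628 and 0.0708. Pfkp kept it without WT 2, WT 3 or 17-56, and Prodh, Nr3c1 and Fkbp5 without WT 2 or WT 3. Pgam2 kept it only without WT 1, and Eno1, Pgam1, Hk2, Slc5a12, Got1, Esrra, Pprc1 and Pth1r only without WT 2, the highest adjusted p among these leave-outs being 0.155. With limma on the deposited RPKM plus 5, only Hsd11b1, Gpt and Irs2 of these genes passed.

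**Figure D5:**
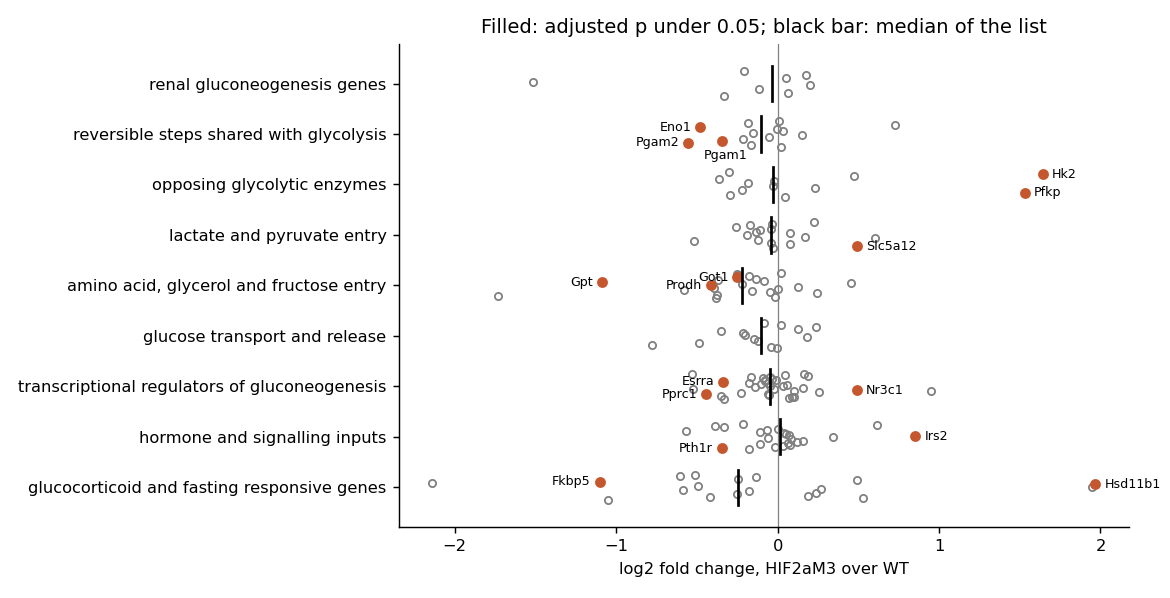
Log2 fold change, HIF2aM3 over WT, of every tested gene of the 8 gluconeogenesis genes and the 8 lists of related genes (rows), with genes at an adjusted p under 0.05 filled and named and the list median as a black bar. None of the 8 gluconeogenesis genes is filled, and the named genes farthest from 0 are Hsd11b1, Hk2, Pfkp, Fkbp5 and Gpt.

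Markers of the cell types in a cortical slice were summed per animal. Their counts stand beside shares over all genes of 1.93% called higher and 1.82% called lower by edgeR. The share at an unadjusted edgeR p under 0.05 was 24.9%, and DESeq2 called 10.8%. The 16 markers of the proximal tubule, whose cells hold the pathway, summed to between 24107 and 24947 CPM in WT animals and between 22563 and 24590 CPM in transgenic animals. By edgeR 1 was higher (Slc5a12) and 1 lower (Slc22a6), with a median log2 fold change of -0.01. Of the 16, 5 had an unadjusted edgeR p under 0.05, and DESeq2 called 3. The 10 collecting duct markers summed to 485 to 606 CPM in HIF2aM3 against 724 to 756 in WT, with 1 of the 10 values positive. By edgeR 4 were called lower (against 1.82% of all genes) and 6 did not pass. At an unadjusted edgeR p under 0.05 there were 6, and DESeq2 called 6. The 6 endothelial markers summed to 432 to 438 CPM against 258.5 to 368. By edgeR 2 were called higher (against 1.93% of all genes) and 4 did not pass. All 6 had an unadjusted edgeR p under 0.05, and DESeq2 called all 6. All 6 endothelial values were positive, with a median log2 fold change of 0.45. The 7 leukocyte markers summed to 95.8 to 112 CPM against 56.2 to 86.0. By edgeR 1 was called higher (against 1.93% of all genes) and 6 did not pass (2 at an unadjusted p under 0.05, 1 by DESeq2 among the 7). Of the 8 loop of Henle and distal tubule markers, 0 passed by edgeR (3 at an unadjusted p under 0.05, 1 by DESeq2), with summed levels of 3907 to 4946 CPM in WT and 3468 to 3774 CPM in HIF2aM3. Of the 6 fibroblast and smooth muscle markers, 0 passed (2 unadjusted, 2 by DESeq2), at 148 to 219 CPM against 221 to 293, and of the 5 podocyte markers 0 passed (0 unadjusted, 0 by DESeq2). Of 5 erythrocyte markers 3 were tested and 0 passed (1 unadjusted, 0 by DESeq2), with 3 negative values and a median of -0.73. They summed to 74.9 to 144 CPM in WT and 37.9 to 94.6 CPM in HIF2aM3. Of 5 adrenal cortex markers 2 were tested and 0 passed (0 unadjusted, 0 by DESeq2). The part of these shifts in the results above was not tested.

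Liver and fat also express Pck1. Of 12 liver markers 9 were tested, and by edgeR 1 rose (against 1.93% of all genes), 1 fell (against 1.82%) and 7 did not pass. DESeq2 called 4 (against 10.8%), and 5 had an unadjusted edgeR p under 0.05 (against 24.9%). The median was -0.01, with summed levels of 2168 to 2268.5 CPM in WT and 1803 to 2575 CPM in HIF2aM3. Most of that sum was Cyp2e1, which the kidney of male mice also expresses, at 2171 ± 51.5 and 2020.1 ± 425 CPM (SD, n = 3). F2, the prothrombin gene, rose from 4 reads over the WT libraries to 563 over the HIF2aM3 libraries (edgeR adjusted p = 0.0124), and Apoh, apolipoprotein H, fell from 14.1 ± 0.454 to 9.56 ± 0.527 CPM (0.0167). Fgb had a log2 fold change of 1.24 ± 0.46 (SE) and Serpina1a of -1.55 ± 0.48, neither past the threshold. Albumin (Alb) averaged 8.20 ± 0.363 CPM in the WT animals and 8.24 ± 3.01 CPM in the transgenic ones. The liver enzymes Cps1 and Tat were near 0, with 0 reads each in WT and 1 each in HIF2aM3. These liver genes were picked out after their values were seen.

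All 5 fat markers were too low to be tested. Adipoq had 63 reads over the WT libraries, 60 of them in kidney 2 of WT 1, and 1 read over the HIF2aM3 libraries, and Cidec had 121 of its 125 WT reads in that same library. Kidney 1 of WT 1 had 1 read of Adipoq and 0 of Cidec. The Pck1 level was 2800.1 CPM in that kidney 1 and 2785 CPM in kidney 2. The part of liver and fat RNA in the values of the 8 genes was not tested.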

How the data were processed

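Kidney cortex RNA of 6 mice, 2 kidneys each, had been sequenced from Illumina TruSeq RNA libraries, per the labels' protocols, and the submitters' processing notes name mm9 as the genome build. For the aligner, counter, annotation release and strand setting, the sources used here give nothing. The deposited values are raw read counts per Ensembl ID, RPKM (made by the authors after 1 read was added to each count, as the values show), and the authors' fold ratios, log2 fold changes and q-values, per the file headers. The authors also deposited group mean counts (a signal) and a t statistic (a score), not used here. Names from GENCODE M21 matched 24630 of 27412 IDs, and the 2782 others held 1.18% of counts.

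For each animal, as the labels name it, the counts of both kidneys were added and tested with edgeR 4.0.16 in R 4.3.3 (filterByExpr, TMM, robust quasi-likelihood, two-sided, Benjamini-Hochberg threshold 0.05). Kidneys were compared over 12 libraries with the animal as a block. Alternatives used DESeq2 1.42.0, limma 3.58.1 on log2 RPKM plus 0.1, 1 or 5, RLE factors, library size alone, other count filters, 1 kidney only, libraries as replicates, no kidney 2 of 17-51, and each animal left out. On simulated data (19395 genes) the genotype test recovered 100% of genes simulated at a log2 difference of 1 or 2, 40% at 0.5 and 2% at 0.25, but genes as variable as Pck1 were not simulated. The 8 genes, the lists and the tests were chosen with earlier results of these data known. Named genes were the 8, Epas1, Ggt1, up to 4 called genes per list by adjusted p (or the smallest p where fewer than 2 passed), and the 5 closest patterns of Pck1, G6pc and Ppargc1a.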

Additional observations from a re-analysis of the deposited data

Results flagged for a closer look

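The Fbp2 level of WT 1 kidney 1, 14.2 CPM, lay far from those of the other 5 WT libraries, which ran from 16.8 to 17.6 CPM. The gap to the nearest library was a larger part of the group's range than Dixon's test allows for 6 libraries at its 95% critical value. Of the 16 sets examined (8 genes in 2 genotypes) this was 1, where chance gives about 1 in 20, and the kidneys of an animal are not independent.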

How the results depend on the processing

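Of the 8 genes, 0 passed with 1 kidney alone, RLE factors, library size alone, other count filters, limma on RPKM or no kidney 2 of 17-51. The count was 4 with 12 libraries as replicates (Pck1, Slc37a4, Fbp1 and Fbp2), which treats kidneys of an animal as independent, 2 with DESeq2, and 0 to 1 with each animal left out. Over all genes the count of 733 became 4829 with 12 libraries, 337 with kidney 2 only, 2038 with DESeq2, and 140, 114 and 67 with limma on RPKM plus 0.1, 1 and 5. It became 115, 1549 and 187 without WT 1, 2 and 3 and 42, 11 and 196 without 17-51, 17-53 and 17-56. G6pc turned to -0.00934 with kidney 2 only and ran from -0.19 to 0.25 with each animal left out. Of the closest genes, leave-outs ran from -0.0796 to 0.32 for Gm17035, -0.0539 to 0.36 for Hunk, -0.00491 to 0.40 for Ndrg1, -0.00779 to 0.37 for Arhgap26, -0.0696 to 0.52 for Arntl and -0.00207 to 0.0687 for Phldb2. The other 7 of the 8 genes kept their direction in all 18 alternatives. Between kidneys, 17 genes passed, 0 without the animal block and 6 without 17-51, where Fbp1 turned to -0.00337. The cause of these changes was not tested. On simulated data a log2 difference of 0.25, near those of Fbp1, Fbp2 and Pck2, was recovered for 2% of genes in the genotype comparison. That simulation gave all genes the same dispersion and changed only 50 genes at each difference. The 2% is therefore not a recovery rate for Fbp1, Fbp2 or Pck2 in these data.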
